A study of Mus musculus with 4 samples.

Results

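Bone morphogenetic protein (BMP) signalling was examined through 10 genes of the pathway, namely the inhibitory Smad gene Smad6, the receptor-regulated Smad genes Smad1, Smad5 and Smad9, the target genes Id1, Id2 and Id3, the receptor genes Bmpr1a and Bmpr2, and the ligand gene Bmp4. They were taken by name from a table of 55573 mouse genes. The set was selected on WT and KO values of these genes that were already known, so all member values and differences below are descriptions and carry no test. The data are ribosome profiling (Ribo-seq) libraries, in which the mRNA fragments protected by ribosomes are sequenced, from primary myoblasts, which are proliferating muscle precursors that descend from muscle stem cells in culture. The WT group and the group labelled eIF5A-KO had 2 libraries each. Both groups were cultured to Day 2 under proliferation conditions with FGF and were treated with cycloheximide, which stalls ribosomes on mRNA.

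The study's methods describe the KO mice as Pax7CreERT2/+;eIF5A f/f animals given tamoxifen, so that the floxed gene, which encodes a translation factor, is removed only where Cre is driven by Pax7, a muscle stem cell gene. The floxed mice were on a C57BL/6j background, and primary myoblasts were described as coming from the digested hind-limb muscle of 3-week-old mice without a stated cell sort. The controls were WT littermates, given in one place as Pax7CreERT2/+ and in another as Pax7+/+;eIF5A f/f. How many animals each library held was not given in the sources used here. The labels do not say that libraries of a group came from separate animals or cultures, so any spread or p-value below covers these libraries, and that spread may be technical.

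BMP ligands bind a complex of type I and type II receptor kinases, which phosphorylates Smad1, Smad5 or Smad9. The phosphorylated Smads join Smad4, enter the nucleus and switch on targets that include the Id genes and Smad6. Smad6 closes the loop, since it binds the active type I receptors and competes for the receptor-regulated Smads. Id proteins lack a DNA-binding region and pair with E proteins, which keeps those partners from myogenic factors such as MyoD. In muscle progenitors the pathway is known for holding cells in proliferation and against differentiation.

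The protein-coding sequences of these genes are shown first where they carry consecutive prolines, because eIF5A is known for helping ribosomes through such stretches. The letters are spliced coding sequence of the GRCm38 build, from the longest coding transcript of each gene in GENCODE vM21, read 5′ to 3′ on the strand of the gene with 5 codons on either side. Capitals mark the codons of the longest proline run.
Smad6, residues 276 to 279 of 495: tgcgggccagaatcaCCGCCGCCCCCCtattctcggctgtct
Smad1, residues 223 to 225 of 465: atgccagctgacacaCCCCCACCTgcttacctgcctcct
Smad5, residues 222 to 224 of 465: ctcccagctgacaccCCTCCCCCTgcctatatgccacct
Bmpr2, residues 132 to 134 of 1038: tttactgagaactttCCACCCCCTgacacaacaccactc
The printed stretch of Smad6 crosses the junction of exons 1 and 2 of its transcript, with the run of 4 prolines on the exon 2 side. Those of Smad1 and Smad5 cross the junction of exons 3 and 4, with the run on the exon 4 side. The Bmpr2 stretch lies within exon 3, at chr1:59815372-59815410 on the plus strand. Among 9854 protein-coding genes in the fit, 8.88% had a run of at least 4 prolines and 25.8% had one of at least 3. Smad9, Id1, Id3, Bmpr1a and Bmp4 had no run above 2, which 72.6% of genes reach, and Id2 had only isolated prolines.

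The promoters of Smad6 and Id2 are shown because these were the members with the lowest differences between the groups. Each is 300 bases from RefSeq on GRCm38.p6, from 250 bases before to 50 after the annotated start, on the strand of the gene. A RefSeq promoter was matched for 9 of the 10 genes, all but Id1. Capitals mark GGCGCC, a GC-rich motif known for binding Smad1 and Smad5, and AGAC or its complement GTCT, known for binding Smad4, searched on both strands.
Smad6, chr9:64022010-64022309, minus strand: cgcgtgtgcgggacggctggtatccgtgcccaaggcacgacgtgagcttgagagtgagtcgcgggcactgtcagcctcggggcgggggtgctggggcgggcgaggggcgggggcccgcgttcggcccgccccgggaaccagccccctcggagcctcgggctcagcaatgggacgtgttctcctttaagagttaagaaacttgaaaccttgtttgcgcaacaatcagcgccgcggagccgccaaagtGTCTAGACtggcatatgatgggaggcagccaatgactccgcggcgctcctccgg
Id2, chr12:25096043-25096342, minus strand: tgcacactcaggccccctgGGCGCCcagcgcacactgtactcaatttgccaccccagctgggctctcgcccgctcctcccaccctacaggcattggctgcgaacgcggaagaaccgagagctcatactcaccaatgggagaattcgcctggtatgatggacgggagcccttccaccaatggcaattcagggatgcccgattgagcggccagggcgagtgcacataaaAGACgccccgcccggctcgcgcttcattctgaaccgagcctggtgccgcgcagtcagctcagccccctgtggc
Smad6 held GTCT and AGAC joined as the palindrome GTCTAGAC, which 0.213% of 32851 RefSeq promoters of this length hold, and no GGCGCC. Id2 held 1 GGCGCC, found in 11.9% of promoters, and 1 AGAC, found on either strand in 88.0%. These matches are letters in a window and were not tested as sites.

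Levels are in RPKM, reads per kilobase of gene length, which the authors scaled to a common library size. The libraries held 642429 to 704006 gene-assigned reads, all recovered as whole numbers from the deposited values. Protein-coding genes took 33.9% and 41.5% of the reads in WT and 59.2% and 65.4% in the KO-labelled libraries. For a gene of 1 kb, 3 reads corresponded to 3.31 to 6.37 RPKM, and such floors, like the intervals below, cover counting error only. Log2 differences are KO minus WT on the log2(RPKM + 1) scale, from a limma fit to the 11363 genes whose mean RPKM reached 1, and this scale understates the change of low genes. The groups were not separated by the targeted gene itself. Footprints of Eif5a (ENSMUSG00000078812, chromosome 11, 69916714 to 69921958, minus strand) were at 34.9 and 65.2 RPKM in WT and at 60.3 and 59.4 RPKM in the other group. This gave a log2 difference of 0.32 ± 0.48 (SE) and an adjusted p of 0.839 in limma. The deposited table does not say which exons are floxed, and reads outside them would not report the deletion. The KO group is therefore given by its label throughout.

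Ribosome footprints on Smad6 separated the groups by more than those on any other member. Smad6 (ENSMUSG00000036867, chromosome 9, 63953076 to 64022059, minus strand) stood at 137 and 351 RPKM in WT, from 264 and 530 reads. It stood at 34.1 and 17.0 RPKM in the KO-labelled libraries, from 99 and 44 reads. Both libraries labelled KO lay below both WT libraries, and the lowest WT value was 4.01 times the highest value labelled KO. The means were 244 ± 152 and 25.5 ± 12.1 RPKM (SD, n = 2), a ratio of means of 9.55. The log2 difference was -3.13 ± 0.64 (SE).

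The spread within each group was itself wide for Smad6. The Poisson 95% intervals of the 4 libraries, 121 to 154 and 322 to 382 RPKM in WT and 27.7 to 41.5 and 12.4 to 22.8 RPKM in the KO-labelled libraries, did not overlap one another, so libraries of a group differed by more than counting error. With a library left out in turn, the log2 difference was -3.81 without WT replicate 1, -2.45 without WT replicate 2, -3.61 without KO replicate 1 and -2.65 without KO replicate 2. Scaled to total reads instead, which moved the median of all genes by 0.50, it was -2.53, and with trends in coding GC content and length removed it was -2.62. Of 6500 protein-coding genes with at least 40 reads, a limit set once the data had been seen, Myog alone had a lower difference than Smad6. For Myog, 82 of 88 reads came from WT replicate 1. Over all 11363 genes in the fit the lowest difference was -6.18. Since Smad6 was chosen on these values, its place is a description only. The level of Smad6 in WT lay above that of 99.6% of protein-coding genes in the fit, against 90.4% in the KO-labelled libraries.

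The receptor-regulated Smads, which Smad6 opposes, showed small differences next to those of Smad6. Smad1 (ENSMUSG00000031681, chromosome 8, 79338395 to 79399518, minus strand) was at 18.5 and 17.6 RPKM in WT and at 12.0 and 14.8 RPKM in the KO-labelled libraries. The WT values lay close together and above both KO-labelled values, with a log2 difference of -0.41 ± 0.38 (SE). Smad5 (ENSMUSG00000021540, chromosome 13, 56703010 to 56742377, plus strand) was at 7.38 and 6.87 RPKM in WT and at 6.54 and 5.34 RPKM in the KO-labelled libraries. The gap between the groups was narrow, and the log2 difference of -0.23 ± 0.36 (SE) was smaller than its error. When scaled to total reads, both differences changed sign, to 0.16 for Smad1 and 0.30 for Smad5.

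Smad9 (ENSMUSG00000027796, chromosome 3, 54755582 to 54801257, plus strand), the third receptor-regulated Smad of the pathway, had 1 read in all, in KO replicate 2. It was the single member below the filter, and 3 reads on it would have been 0.616 to 1.19 RPKM. Over the positions at which a pair of proteins could be aligned, Smad1 and Smad5 were identical at 90.7%, Smad1 and Smad9 at 85.6%, and Smad5 and Smad9 at 83.6%. Smad6 was identical to these 3 at 36.0% to 38.0% of 350 to 353 aligned positions. How reads that match several genes were counted was not given in the sources used here, so a split of reads between Smad1 and Smad5 cannot be assessed.

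The Id genes differed among themselves. Id1 (ENSMUSG00000042745, chromosome 2, 152736251 to 152737410, plus strand) was at 94.4 and 129.9 RPKM in WT and at 95.0 RPKM in each library labelled KO, from 66, 71, 100 and 89 reads. The KO-labelled values lay inside the WT range, and the log2 difference was -0.22 ± 0.46 (SE). Id3 (ENSMUSG00000007872, chromosome 4, 136143497 to 136145755, plus strand) was at 239.9 and 324 RPKM in WT and at 255 and 285 RPKM in the KO-labelled libraries, again with overlapping groups. Its log2 difference was -0.05 ± 0.51 (SE). The sign of either difference depended on the processing. Scaled to total reads, the log2 differences were 0.39 for Id1 and 0.57 for Id3, and without WT replicate 2 they were 0.01 and 0.17.

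Id2 departed from the other Id genes. Id2 (ENSMUSG00000020644, chromosome 12, 25093799 to 25097140, minus strand) was at 21.1 and 13.9 RPKM in WT, from 31 and 16 reads. It was at 5.88 and 9.65 RPKM in the KO-labelled libraries, from 13 and 19 reads. The groups did not overlap, although the recovered reads were few and the Poisson 95% interval of WT replicate 2, 7.96 to 22.6 RPKM, spanned the level of KO replicate 2. The ratio of means was 2.26 and the log2 difference -1.09 ± 0.44 (SE), with -0.53 when scaled to total reads. Among the 6500 protein-coding genes above, 229 had a lower difference. The Id proteins were identical to one another at 43.4% to 46.9% of aligned positions.

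**Figure D1:**
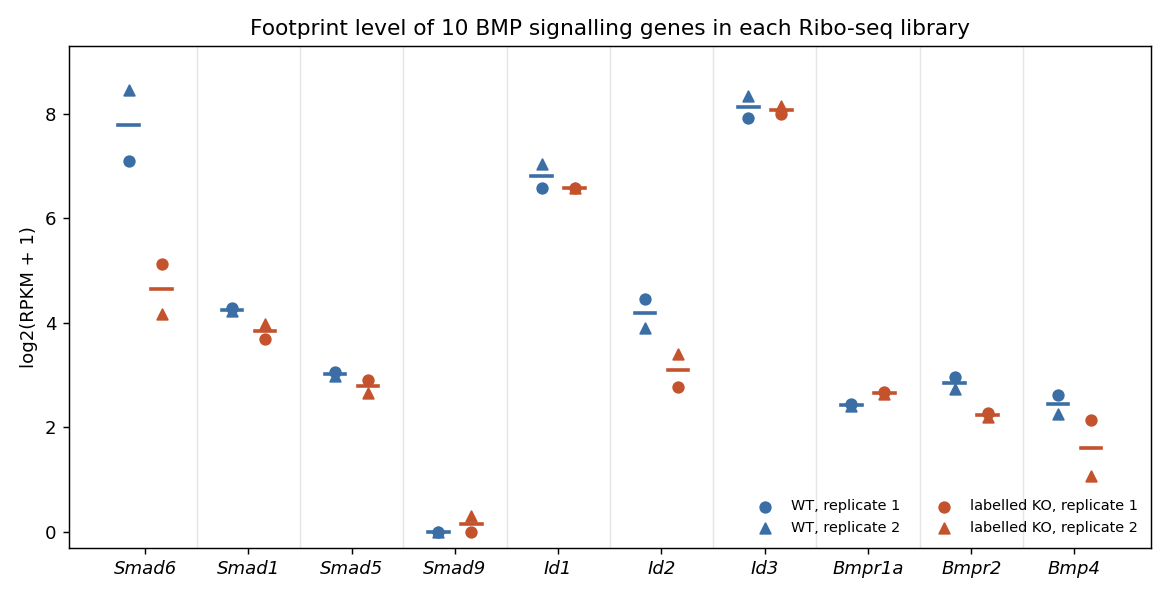
Ribosome footprint level of the 10 genes, as log2(RPKM + 1), in each of the 4 libraries. Circles are replicate 1, triangles replicate 2, and bars the mean of each group; Smad6 shows the widest gap between WT and the libraries labelled KO, while the Id1 and Id3 values of the groups overlap.

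The receptors had few reads, and their differences had opposite signs under the deposited scaling, with that of Bmpr1a smaller than its error. Bmpr1a (ENSMUSG00000021796, chromosome 14, 34410734 to 34503341, minus strand), a type I receptor, was at 4.44 and 4.34 RPKM in WT and at 5.38 and 5.26 RPKM in the KO-labelled libraries, from 13 to 31 reads. It was the single member whose KO-labelled values both lay above WT, with a log2 difference of 0.23 ± 0.35 (SE) that turned to -0.09 with the GC and length trends removed. Bmpr2 (ENSMUSG00000067336, chromosome 1, 59763400 to 59879014, plus strand), the type II receptor, was at 6.83 and 5.67 RPKM in WT and at 3.86 and 3.58 RPKM in the KO-labelled libraries, from 48 to 74 reads. Its KO-labelled values lay below both WT values, with a ratio of means of 1.68 and a log2 difference of -0.61 ± 0.36 (SE). Scaled to total reads, that difference was -0.11.

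The ligand Bmp4 (ENSMUSG00000021835, chromosome 14, 46383520 to 46390669, minus strand) was near the floor. From 7 and 4 reads, WT stood at 5.17 and 3.78 RPKM, and from 7 and 2 reads the group labelled KO stood at 3.43 and 1.10 RPKM. The log2 difference was -0.83 ± 0.50 (SE). The Poisson 95% intervals of all 4 libraries overlapped, and the value of KO replicate 2 lay under the 1.65 RPKM that 3 reads would give. So few reads do not settle whether Bmp4 differed between the groups.

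Across the 9 members in the fit, both libraries labelled KO lay below both WT libraries for 6 and above them for 1, and the groups overlapped for Id1 and Id3. Over all 11363 genes the corresponding shares were 20.3% lower and 20.1% higher under the deposited scaling. The even split belongs to that scaling, since on total reads 7.55% of 11476 genes were lower and 41.8% higher without overlap. The members passed or missed this count on values that also served to choose them, and nothing is read from it. The median log2 difference of the 9 was -0.41, against 0.00 for all genes in the fit. On total reads, 1 member was lower and 3 were higher without overlap, and the members' median was 0.16 next to 0.50 for all genes. Smad6 and Id2 were lower under every alternative tried, as were Bmpr2 and Bmp4 wherever they entered the fit.

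**Figure D2:**
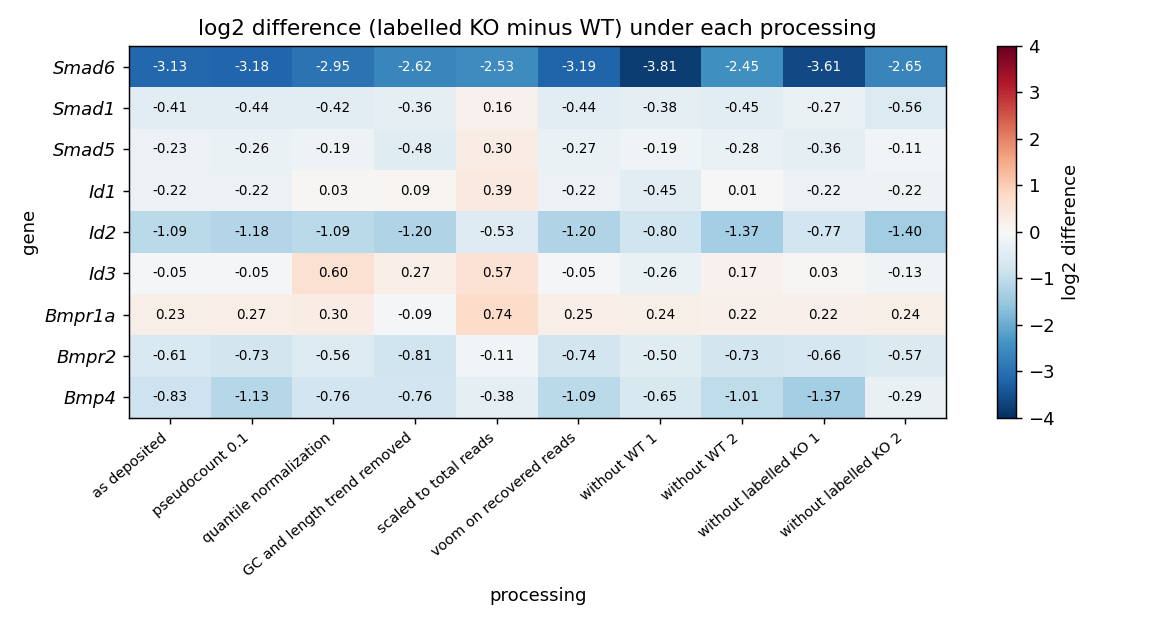
Log2 difference, KO minus WT, of the 9 members in the fit under the deposited scaling, 5 other ways of processing and with each library left out. Blue is lower and red higher in the KO-labelled libraries; Smad6 runs from -3.81 to -2.45, whereas Id1, Id3, Smad1, Smad5 and Bmpr1a each change sign at least once.

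Since RPKM is per length, levels can be ordered among genes, with the limit that the length is that of the whole gene model, which for Bmpr2 is 17983 bases around a coding sequence of 3114. In WT the order by mean was Id3, Smad6, Id1, Smad1, Id2, Smad5, Bmpr2, Bmp4, Bmpr1a and Smad9. The ranges of Id3 and Smad6 overlapped, as did those of Smad1 and Id2 and those of Bmp4 and Bmpr1a. In the libraries labelled KO the order was Id3, Id1, Smad6, Smad1, Id2, Smad5, Bmpr1a, Bmpr2, Bmp4 and Smad9. The mean of Smad6 stood above that of Id1 in WT, 244 ± 152 against 112 ± 25.1 RPKM (SD, n = 2), and below it in the other group, 25.5 ± 12.1 against 95.0 ± 0.0402 RPKM (SD, n = 2). In that group the ranges of Id2, Smad5 and Bmpr1a ran into one another, from 5.88 to 9.65, 5.34 to 6.54 and 5.26 to 5.38 RPKM.

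The members also differed in base composition. The coding sequence of Smad6 was 68.0% G and C, higher than in 99.0% of 9854 protein-coding genes, whose median was 53.2%. Id3 and Id1 followed with 63.6% and 62.9%, and the least GC-rich were Bmpr1a with 43.9% and Bmpr2 with 46.9%. The high GC content of Id1 and Id3 went with overlapping groups, and that of Smad6 with the lowest difference among the members. Whether GC content or proline runs had a part in the differences was not tested across the 10 genes.

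The rest of the pathway was followed with a list of 69 other genes, drawn up by role with earlier results of these data known. No footprint was counted for 10 of them and 49 entered the fit. None passed an adjusted p of 0.05 in limma, which 0.106% of all genes in the fit did, and 3 had an unadjusted p under 0.05. At least 2-fold with an unadjusted p under 0.05, the criterion the study used for its RNA-seq, was reached by 1 gene on the higher and 2 on the lower side in the group labelled KO. Over all genes, 2.67% were higher and 4.29% lower by it. The split depended on the scaling, since on total reads 1589 genes (13.8%) were higher and 169 (1.47%) lower, and in the list 8 were higher and 1, Atoh8, was lower. The groups did not overlap for 10 genes on the higher side and 17 on the lower side, beside 20.1% and 20.3% of all genes, and the median log2 difference was -0.04. On total reads the sides turned, to 22 genes higher and 2 lower beside 41.8% and 7.55% of all genes, and the median was 0.46, next to 0.50 for all genes. No gene of the 49 had a difference as low as that of Smad6.

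The list gene with the lowest difference was Atoh8, a basic helix-loop-helix transcription factor known as a BMP target. Atoh8 (chromosome 6, 72206177 to 72235577, minus strand) was at 15.2 RPKM in each WT library and at 2.20 and 3.95 RPKM in the KO-labelled libraries, from 23, 18, 5 and 8 reads. Its WT values were almost equal and its KO-labelled values both lower, with a ratio of means of 4.95 and a log2 difference of -2.03 ± 0.40 (SE). The unadjusted limma p was 0.00238 and the adjusted p 0.471. Atoh8 met the 2-fold criterion under all alternatives tried. Junb, an AP-1 subunit that BMP can induce and the target with the most footprints, was at 213 and 208 RPKM in WT and at 235 and 211 RPKM in the KO-labelled libraries, a log2 difference of 0.08 ± 0.48 (SE). The 6 targets in the fit had a median of -0.33.

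Ski, a repressor that binds Smad4, was at 36.7 and 24.4 RPKM in WT and at 11.1 and 14.5 RPKM in the KO-labelled libraries. The groups did not overlap, and the log2 difference was -1.18 ± 0.42 (SE), with an unadjusted limma p of 0.0329 and an adjusted p of 0.672. The criterion was lost for Ski when values were scaled to total reads, with -0.60, and when GC and length trends were removed, with -0.72. It was also lost without WT replicate 1, KO replicate 1 or KO replicate 2, with differences between -1.35 and -0.89. Fkbp1a, whose product keeps type I receptors silent, had a log2 difference of 0.22 ± 0.41 (SE), and the 22 intracellular regulators a median of 0.06.

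The secreted BMP antagonists in the fit, 10 in number, lay on both sides of 0, with a median log2 difference of 0.00. Of those with the most footprints, Fstl1 had a log2 difference of 0.80 ± 0.47 (SE), from 78.0 and 83.8 RPKM in WT against 172 and 116 RPKM in the other group. Nbl1, which binds BMP ligands, had one of -0.87 ± 0.41 (SE), from 49.0 and 36.5 RPKM against 21.7 and 23.8 RPKM. The groups did not overlap for either gene, and neither met the 2-fold criterion.

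Among ligands and receptors no gene met the criterion. The ligand Bmp2 was at 35.0 and 17.3 RPKM in WT and at 18.6 and 15.0 RPKM in the KO-labelled libraries, and Bmp6 had a log2 difference of -0.48. The ligands at 0 in every library numbered 5 of 12, and only 3 entered the fit. Eng, a co-receptor known from endothelial cells, was level between the groups, with a log2 difference of 0.00 ± 0.40 (SE). The type I receptor Acvr1 had a log2 difference of 0.15 ± 0.43 (SE), and the 8 receptors and co-receptors in the fit a median of -0.31.

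**Figure D3:**
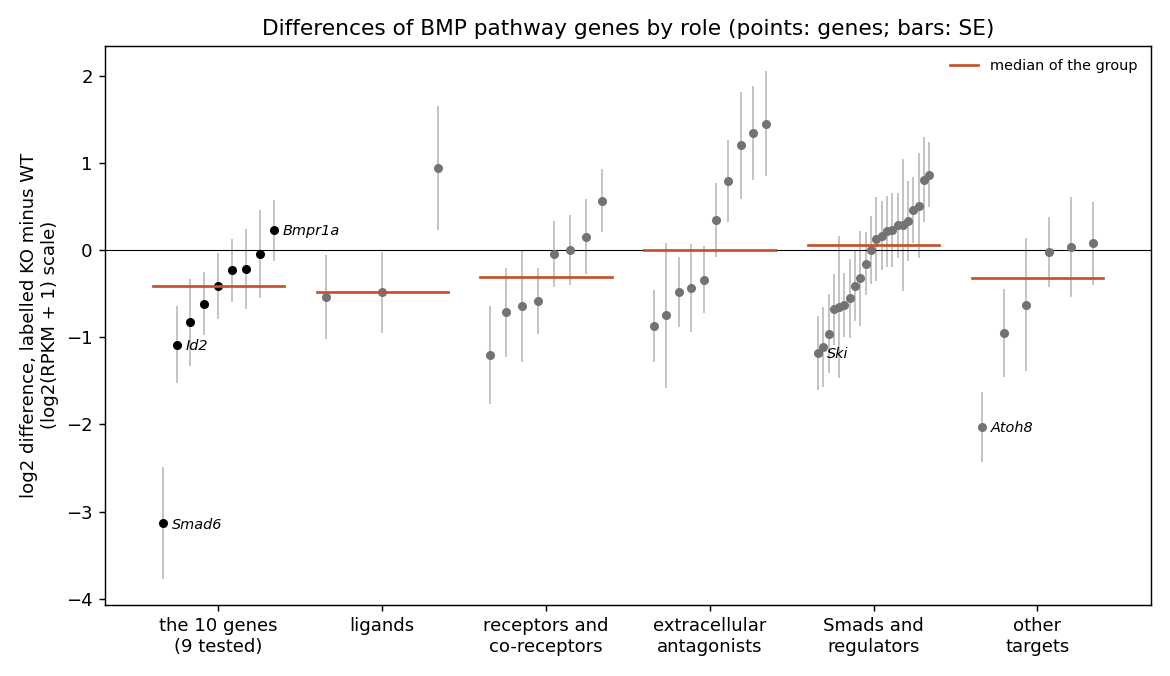
Log2 differences, KO minus WT, on the log2(RPKM + 1) scale for the 9 members in the fit and for the other pathway genes by role. Each point is a gene with its SE, and horizontal bars mark the median of each role; Smad6, at -3.13, lies below every other pathway gene, the next being Atoh8 at -2.03.

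The partners that Id proteins act on were taken as a further list, the E proteins and the myogenic helix-loop-helix factors. The E protein genes Tcf3, Tcf4 and Tcf12 had log2 differences of -0.56 ± 0.46, 0.05 ± 0.37 and -0.19 ± 0.39 (SE). On total reads these were -0.01, 0.60 and 0.31, and with GC and length trends removed -0.11, 0.09 and -0.39. Without KO replicate 1 the difference of Tcf3 was -0.08, and without KO replicate 2 it was -1.04. Myod1, which drives myogenic commitment, was at 139.9 and 117 RPKM in WT and at 48.6 and 79.8 RPKM in the KO-labelled libraries, with a log2 difference of -1.03 ± 0.48 (SE) and an adjusted limma p of 0.676. Its groups did not overlap, and the difference was -0.42 on total reads and -0.61 with GC and length trends removed. The study itself reported a significant decrease of Myod translation efficiency in KO cells, from Ribo-seq among other assays. It also reported that Myod mRNA did not differ from WT, and that mRNA was not analysed here. Myf5, a factor of early myogenic cells, met the 2-fold criterion with a log2 difference of -2.09 ± 0.56 (SE), on 14 reads in all. It lost the criterion without WT replicate 1, WT replicate 2 or KO replicate 2, with differences of -1.82, -2.36 and -1.57. Myog, an early differentiation factor, met it as well, with -3.36 ± 1.27 (SE), but 82 of its 88 reads came from WT replicate 1. Without that library its difference was -1.29 and the criterion was not met, and it was also lost without KO replicate 1, without KO replicate 2 and on total reads, with differences of -3.05, -3.66 and -2.94. Myf6 had 1 read. Adjusted limma p-values for the 6 of these 7 genes in the fit were at least 0.629.

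Markers of cell types, also listed with earlier results of these data known, were summed in each library under the deposited scaling alone. No marker passed an adjusted p of 0.05 in limma, with 8 past the 0.05 level unadjusted. Summed over 9 myoblast markers, levels were 341 and 202 RPKM in WT and 98.4 and 126 RPKM in the KO-labelled libraries. Myog gave 91.0 RPKM of the sum in WT replicate 1 and 4.26 RPKM in WT replicate 2. All 9 had a difference below 0, 5 met the criterion, and Myod1 was the most abundant. With a library left out the 5 became 0 without WT replicate 1, 2 without WT replicate 2, 2 without KO replicate 1 and 4 without KO replicate 2, and 8 or 9 differences stayed below 0. On total reads 2 met it and 7 were below 0, beside the shares of all genes given above, 4.29% lower as deposited and 1.47% on total reads. The 8 endothelial markers summed to 203 and 285 RPKM in WT and to 318 and 382 RPKM in the KO-labelled libraries, with all 8 differences above 0 and 1 past the criterion, led in level by Cldn5. With any library left out all 8 were above 0 and 0 met the criterion, and on total reads 5 met it, beside 2.67% of all genes higher as deposited and 13.8% on total reads. The 8 fibroblast markers, led by Dcn, summed to 467, 269, 774 and 343 RPKM in the order WT replicates 1 and 2 and KO replicates 1 and 2, with 6 differences above 0, none past the criterion, and overlapping groups. The 8 mural markers, led by Acta2, summed to 172 and 134 RPKM in WT and to 107 and 117 RPKM in the KO-labelled libraries. Under the deposited scaling the groups did not overlap in this sum. Of the 7 in the fit, 5 had a difference below 0, 4 of these without overlap between the groups beside 20.3% of all genes, none met the criterion, and the median was -0.59. On total reads 3 of the 7 were below 0 and the median was 0.01. The 8 immune markers, led by Cd14 and with Itgam at 0 in every library, summed to 48.2 to 76.5 RPKM, with overlapping groups. Of the 5 in the fit, Adgre1 met the criterion on the higher side with a log2 difference of 1.33, from 1, 3, 13 and 11 reads. Lyz2 met it on the lower side with -1.16, from 9, 8, 5 and 6 reads in the same order of libraries. Both were named after their values were seen. On total reads 2 immune markers met it on the higher side and 0 on the lower, and with voom 0 met it on either side. The groups did not overlap for 2 on each side, beside 20.1% of all genes higher and 20.3% lower. Markers of cells other than myoblasts were thus present in both groups. In bulk libraries such as these, fewer cells of a type and fewer footprints per cell cannot be told apart, and from footprints alone neither can less mRNA and less translation. The study also measured mRNA by RNA-seq in WT and KO cells, which was not analysed here. The part of these marker levels in the values of Smad6, Id2 and Atoh8 was not tested.

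The protein-coding genes most like Smad6 across the 4 libraries were found by the Euclidean distance between log2(RPKM + 1) values centred on their mean, over 6500 genes with at least 40 reads. The nearest were Tfap2b at a distance of 0.77, Klhl15 at 1.43 and Itgb3bp at 1.58. Tfap2b, which encodes the transcription factor AP-2 beta, was at 10.5 and 37.8 RPKM in WT and at 2.09 and 1.95 RPKM in the KO-labelled libraries, so WT replicate 2 was the highest library for it as for Smad6. The genes nearest to Id1 were Lrwd1, Dbnl and Snrpb, at distances of 0.03, 0.06 and 0.07. With 4 libraries, such distances describe these samples alone.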

How the data were processed

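Ribo-seq libraries of primary mouse myoblasts were analysed, 2 from WT and 2 labelled KO, grouped by genotype label. Per the methods and labels, rRNA and tRNA reads were removed, the rest aligned to mm10 with TopHat2 and counted with HTSeq on Ensembl genes; tool versions, strand and handling of multiple matches were not given in the sources used here. The authors deposited RPKM values, whose denominators, 471136 to 906990 reads, equalled median-of-ratios size factors (0.713 to 1.37) times the geometric mean of the library totals. A change shared by most genes is thus not visible. Whole reads were recovered for 100.0% of values (tolerance 0.01 read).

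Because values were RPKM, limma 3.58.1 (R 4.3.3; lmFit, eBayes with trend, group as the only term, two-sided, Benjamini-Hochberg over 11363 genes) was fitted to log2(RPKM + 1) for genes whose mean RPKM reached 1. The members, pathway list, marker lists and tests were chosen with earlier results of these data known. Named genes were the 10 members, Eif5a, the 2 tested genes of highest mean RPKM in each pathway role, pathway genes past the 2-fold criterion, helix-loop-helix partners, the most abundant marker of each list and any at 0, and the 3 nearest profiles of Smad6 and Id1. A gene of the pathway list is included in counts and medians but is otherwise not reported here. Alternatives were a pseudocount of 0.1, no filter or a mean RPKM of at least 5, scaling to total reads, quantile normalization, protein-coding genes alone, a replicate block, voom on recovered reads, removal of GC and length trends, and leaving out each library. Coding sequences came from GENCODE vM21, where 99.7% of gene identifiers matched. The code was tested on simulated data.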

Additional observations from a re-analysis of the deposited data

How the results depend on the processing

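Smad6, Id2, Bmpr2 and Bmp4 kept their direction under every alternative in which they were fitted. The log2 difference of Smad6 ranged from -3.81 to -2.45 and that of Id2 from -1.40 to -0.53. Signs changed for Smad1 (0.16) and Smad5 (0.30) when scaled to total reads, for Bmpr1a (-0.09) with GC and length trends removed, and for Id1 and Id3 under several settings, with highest values of 0.39 and 0.60. Low read counts limit Smad9, Bmp4, Id2 and Bmpr1a most.

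The count of genes with an adjusted p under 0.05 in limma, 12 in the fit reported and none of them protein-coding, became 0 with a pseudocount of 0.1, no filter, a mean RPKM minimum of 5, total-read scaling, protein-coding genes alone, the replicate block or GC and length trends removed (505 to 1863 genes then had an unadjusted p under 0.05). It was 79 with voom, 2 among genes with at least 40 reads, a setting that was added once the data had been seen, and 0 to 0 with a library left out (430 to 1600 at an unadjusted p under 0.05). Genes at least 2-fold with an unadjusted p under 0.05 went from 791 to 469 when the mean RPKM had to reach 5, 1758 with total reads, 1224 with voom and 422 to 1459 with a library left out, lowest without KO replicate 1 and highest without WT replicate 2. The share of them that were lower went from 61.7% to 9.61% with total reads, 50.0% with quantile normalization, 50.4% for protein-coding genes alone and 53.5% with GC and length trends removed. Pathway genes past that criterion went from 3 to 9 with total reads, 5 for protein-coding genes alone, 6 with the replicate block, 8 with voom, 6 among genes with at least 40 reads, and 1 to 5 with a library left out, with 5 without WT replicate 2 and 1 without KO replicate 1. Genes without overlap between groups went from 4592 to 2496 when the mean RPKM had to reach 5, 3056 with at least 40 reads and 7056 to 8564 with a library left out, where a group of 1 overlaps less by construction. Otherwise the cause was not tested. With a library left out, the lone library of its group was assumed to vary like the others.

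The replicate numbers are shared between groups, but no label says that they pair samples. Deviations of same-numbered libraries from their group means correlated at 0.14 over 6858 genes, so the replicate block rests on the number alone.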
